A study of Mus musculus with 9 samples.

Results

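Cluster V2 was 1 of 10 groups, V1 to V10, into which the authors divided the visceral motor neurons (MNs) of the adult mouse spinal cord. The members of V2 were the nuclei that carry that name among the authors' labels, 771 of 5613 visceral nuclei, 16042 cholinergic nuclei and 34231 labelled nuclei. Visceral MNs are the preganglionic neurons of the autonomic nervous system: they leave the cord and release acetylcholine onto neurons of peripheral ganglia, which in turn reach smooth muscle, glands and the heart. They lie mainly in the lateral horn, and they are known to differ in the nitric oxide synthase, peptides and receptors they carry. *Fbn2*, the gene given as the marker of these cells, encodes fibrillin 2, a protein of the extracellular matrix.

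The study sequenced single nuclei sorted for a fluorescent nuclear envelope. All mice were of the Chat-IRES-Cre::Sun1-sfGFP strain, with the genotype Chat-iCre:+/wt; SUN-SfGFP:+/wt, aged 8 weeks, and no group received a treatment. They were pooled, 4 to a pool: replicate 1 held 2 males and 2 females, replicate 2 held 4 males and replicate 3 held 4 females. The cords of each of the 3 pools were cut into a cervical, a thoracic and a lumbar/sacral part, and each part of a pool gave 1 of 9 libraries. Cre driven by *Chat* marks for good every cell that has ever used that gene, so the sort also took cells that are no longer cholinergic, and each library is a pool in which single mice cannot be told apart. Sex cannot be told apart from the pool, and the 3 libraries of a pool come from the same mice.

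The values are the authors' corrected counts, which a model made from the reads of each nucleus and which bring the nuclei of 1 library to about the same total. They were summed over the V2 nuclei of a library and scaled to parts of 1000000 (CPM). V2 held 77, 63 and 21 nuclei in cervical libraries 1, 2 and 3, 158, 21 and 197 in the thoracic libraries and 121, 66 and 47 in the lumbar/sacral libraries. The median V2 nucleus had 4862 to 16252 corrected counts and 2382 to 5419 genes, and the medians of the other visceral nuclei of the same libraries had a like range of 4729.5 to 16151 corrected counts. The smallest V2 sums were those of 21 nuclei, in which 1 corrected count is worth up to 5.02 CPM, against 0.583 CPM in thoracic library 1. Of all cholinergic nuclei, 33 barcodes were shared between libraries, and 6 V2 nuclei carried such a barcode, none of them shared between 2 V2 nuclei. Scrublet called 11 V2 nuclei doublets (1.43%), and 45 of the 4842 other visceral nuclei (0.929%).

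A pair of libraries went against their labels. In skeletal MNs, *Hoxc5* was at 16.1 and 15.6 CPM in cervical libraries 1 and 3 and at 101 and 94.5 CPM in thoracic libraries 1 and 3, but at 82.5 CPM in the library labelled Cervical 2 and at 9.44 CPM in the library labelled Thoracic 2. Hox genes are transcription factors whose expression follows position along the body. *Hoxa9* in skeletal MNs was at 0.145 and 0 CPM in cervical libraries 1 and 3, at 9.04 CPM in the library labelled Cervical 2, at 0.629 CPM in that labelled Thoracic 2 and at 11.9 and 15.8 CPM in thoracic libraries 1 and 3. In V2 itself, *Hoxa9* was listed at 0 in cervical libraries 1 and 3 and in the library labelled Thoracic 2, and at 2.97 CPM in that labelled Cervical 2, beside 4.66 and 4.43 CPM in thoracic libraries 1 and 3. These V2 values place the libraries poorly. A single corrected count was worth 5.02 CPM in the library labelled Thoracic 2 and 4.81 CPM in cervical library 3, so 0 there cannot be told from the thoracic levels. The 2.97 CPM of the library labelled Cervical 2 was 3 counts. *Hoxc5* in V2 was at 31.6, 64.4 and 57.7 CPM in the cervical and 75.8, 40.2 and 103 in the thoracic libraries and did not place the library labelled Cervical 2 with the other region. The labels were kept as they stand, and each result that rests on these libraries is also given without both of them, called the doubted libraries below.

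V2 nuclei had the visceral markers at the levels of visceral MNs and the skeletal and interneuron markers far below the levels of those classes. The 15 visceral markers together summed to between 4708 and 6075 CPM in V2, with a median of 5235 over the 9 libraries, beside a median of 3789 in the other visceral nuclei, 566 in skeletal MNs and 491 in cholinergic interneurons. *Fbn2* was at 722, 808 and 735 CPM in the cervical, 988, 643 and 620 in the thoracic and 1493, 1180 and 1348 in the lumbar/sacral libraries, 949 ± 322 (SD, n = 9) against 586 ± 326 in the other visceral nuclei, and higher in V2 in 9 of 9 libraries. The 15 skeletal markers summed to 215 to 304 CPM, where skeletal MNs had 2200 to 3514, and the 16 interneuron markers to 92.3 to 408 CPM, where interneurons had 3852 to 4966. Genes of GABA, glycine, glutamate and monoamine neurons summed to 49.0 to 125 CPM (12 of 13 in the files, *Slc6a4* at 0 throughout). Genes of glia and vessels summed to 39.0 to 122 CPM (16 of 18 in the files, *Pdgfra* at 0 throughout). *Chat*, which encodes the enzyme that makes acetylcholine, was at 239 ± 50.7 CPM (SD, n = 9) in V2 and 202 ± 30.4 in the other visceral nuclei. The marker lists of the study were drawn from these samples, so these sums are not independent evidence of what V2 is.

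V2 made up 7.15, 15 and 5.62% of the visceral nuclei in the cervical libraries, 18.4, 5.22 and 20.1% in the thoracic and 18.0, 14.7 and 12.5% in the lumbar/sacral libraries. The lowest shares were those of cervical libraries 1 and 3 and of the library labelled Thoracic 2, so the cervical and thoracic groups overlap as labelled. The means were 9.25 ± 5.03% (SD, n = 3), 14.6 ± 8.14% and 15.04 ± 2.77%. The share was 3.13 percentage points higher in lumbar/sacral than in the other libraries (two-sided exact permutation test over 84 groupings, p = 0.476, smallest possible 0.0119), and 5.31 points higher in thoracic than in cervical libraries (exact test over 20 groupings, p = 0.4, smallest possible 0.1). The test passed for neither difference, and the libraries of the groups overlapped in both. Without both doubted libraries, the thoracic shares were 12.9 points higher than the cervical, where the exact test cannot go below its p of 0.333. Without V8, a cluster almost wholly from lumbar/sacral tissue, the lumbar/sacral share of V2 was 9.81 points higher (exact permutation p = 0.0714), and as a share of all cholinergic nuclei it was lower by 2.35 points (exact permutation p = 0.441). A share can move with the nuclei of the other clusters that the sort and the filters left, and the effect of that on V2 was not tested.

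**Figure D1:**
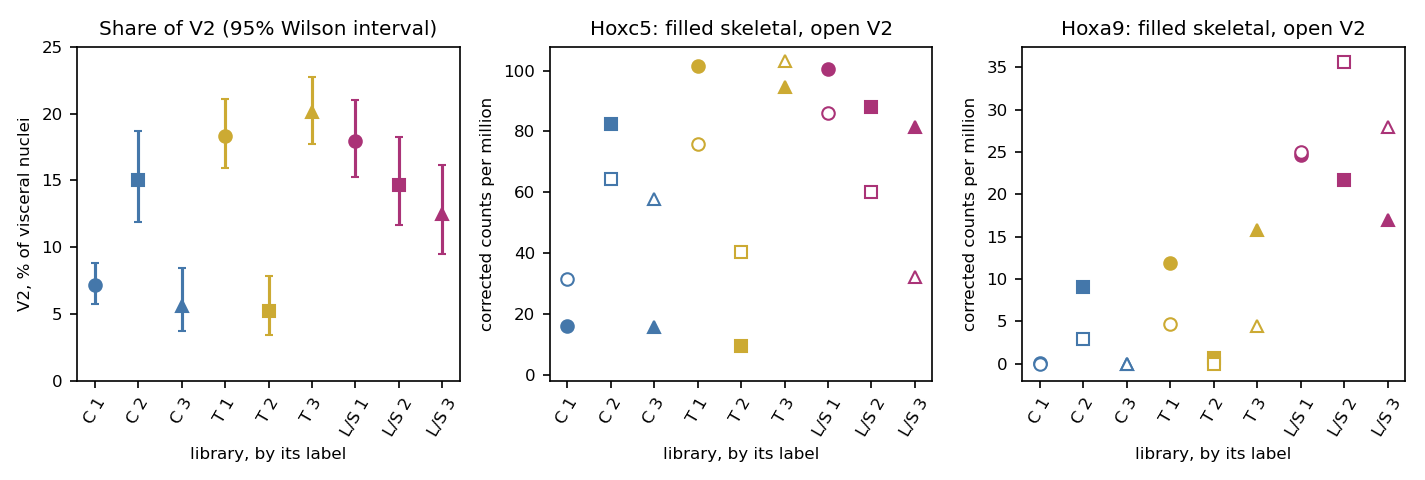
Left, the share of V2 among the visceral nuclei of each library (percent, bars are 95% Wilson intervals). Middle and right, *Hoxc5* and *Hoxa9* in CPM in skeletal MNs (filled) and in V2 (open), by library, with circles, squares and triangles for replicates 1, 2 and 3 and colours for the labelled region. The squares of the libraries labelled Cervical 2 and Thoracic 2 lie with the other region in the share (15% in the first and 5.22% in the second) and in both genes of skeletal MNs, while *Hoxc5* of V2 in the first (64.4 CPM) lies nearer to the cervical libraries.

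V2 was set apart from the other visceral nuclei of the same libraries by high *Rorb*, *Gpc3*, *Ptprk* and *Lama2* and by low *Tenm2*, *Rasgrf1*, *Fam19a2* and *Grik1*. The clusters were drawn from these genes, so what follows is a description with no test. Of 9774 genes with at least 10 CPM, 39 (0.399%) were higher in V2 by a mean log2 difference of at least 1 and higher in every library, and 121 (1.24%) were lower by the same rule. When the other clusters were weighted equally instead of pooled, among genes of at least 50 CPM, 80 were higher and 39 lower, where the pooled comparison of such genes had 32 and 73. Over the 9774 genes, the counts were 98 higher and 57 lower with equal weight, and 40 and 123 when V8 was left out of the pool. The balance of higher and lower genes thus turned with the weight of the clusters, and list counts are given below under both. Those with equal weight are to be read beside the 98 higher and 57 lower of all 9774 genes.

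*Rorb*, a nuclear receptor (chr19:18930605-19111196, minus strand, GRCm38), was at 143, 272 and 106 CPM in V2 of the cervical libraries, 318, 100 and 188 in the thoracic and 32.2, 44.5 and 56.0 in the lumbar/sacral libraries. In the other visceral nuclei it ran from 2.64 to 21.7 CPM, so that every V2 value was above all of them, by 3.30 on the log2 scale on average. *Gpc3*, a heparan sulphate proteoglycan of the cell surface (chrX:52272426-52613950, minus strand), was at 137, 283 and 159 CPM in the cervical and 273, 141 and 195 in the thoracic libraries, but at 3.58, 6.68 and 4.00 in the lumbar/sacral libraries. With 2.72 ± 1.52 CPM (SD, n = 9) in the other visceral nuclei, *Gpc3* marked the cervical and thoracic V2 nuclei and not those of lumbar/sacral tissue, where the log2 difference was as low as 0.07 and, with V8 left out, not positive in every library. No other visceral cluster had a mean above 5.4 CPM of *Gpc3*, whereas cholinergic interneurons had 119 CPM.

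*Lama2*, the laminin alpha 2 chain of basement membranes (chr10:26980036-27619758, minus strand), was the leading gene that was high in every region: 44.6, 112 and 38.4 CPM in the cervical, 165, 45.2 and 121 in the thoracic and 222, 140 and 124 in the lumbar/sacral libraries, with 7.33 ± 3.69 CPM in the other visceral nuclei (SD, n = 9). The next cluster, V6, had 28.1 CPM. *Ptprk*, a receptor-type tyrosine phosphatase (chr10:28074820-28597397, plus strand), was at 206, 510 and 144, 529, 201 and 415, and 98.4, 75.7 and 108 CPM in the same order, beside 18.7 ± 7.37 in the other visceral nuclei. Both genes were thus above the other visceral nuclei in 9 of 9 libraries, *Ptprk* by 1.60 to 4.85 and *Lama2* by 2.10 to 4.12 on the log2 scale.

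The other leading genes were shared more widely among visceral clusters. *Cpne4*, which encodes a copine, a protein that binds membranes in the presence of calcium, was at 601 ± 263 CPM in V2 and 107 ± 49.2 in the other visceral nuclei (SD, n = 9), but V5 had 246 and V3 221 CPM. *Cpa6*, a secreted carboxypeptidase, was at 616 ± 351 against 171 ± 176 CPM, and *Ntng1*, a membrane-bound netrin, at 1468 ± 421 against 540 ± 106. For *Ntng1*, V4 was above V2, at 1706 ± 430 CPM (SD, n = 9), and V5 had 1061 CPM. *Gfra1*, given next, was likewise higher in V8 than in V2, at 361 ± 96.7 CPM (SD, n = 3). The receptor genes *Lifr* (105 ± 42.4 against 21.2 ± 10.2 CPM), whose product binds leukaemia inhibitory factor, and *Gfra1* (218 ± 57.3 against 91.4 ± 71.2), whose product binds the growth factor GDNF, were higher in V2, as was *Cyp11b1* (63.9 ± 27.1 against 16.9 ± 15.6), known as a steroid hydroxylase of the adrenal cortex. *Arhgap36* (127 ± 55.7 against 28.5 ± 12.8 CPM) and *Plpp4* (204 ± 109 against 63.7 ± 53.0) completed the 10 genes with the largest differences, with *Rorb*, *Gpc3*, *Ptprk*, *Lama2*, *Cpne4*, *Cpa6*, *Lifr* and *Cyp11b1*.

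*Tenm2*, a teneurin that joins synaptic partners across the cleft, had the largest difference in the other direction, -3.61 on the log2 scale. It was at 273, 4.96 and 163 CPM in V2 of the cervical, 90.9, 65.3 and 48.1 in the thoracic and 308, 125 and 196 in the lumbar/sacral libraries, all far below the 1332 ± 456 CPM (SD, n = 9) of the other visceral nuclei. *Rasgrf1*, an exchange factor of Ras, was at 34.9 ± 38.1 against 244 ± 56.2 CPM, *Fam19a2*, a secreted peptide of the study's marker list, at 72.5 ± 81.8 against 366 ± 110, and the kainate receptor gene *Grik1* at 71.4 ± 53.3 against 426 ± 182. The transcription factor gene *Foxp2* (9.37 ± 7.18 against 91.7 ± 39.0 CPM), the Slit receptor gene *Robo1* (95.1 ± 98.0 against 484 ± 244) and *Adamtsl1* (167 ± 114 against 885 ± 301), which encodes a matrix protein, were also among the 12 genes most depleted in V2.

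**Figure D2:**
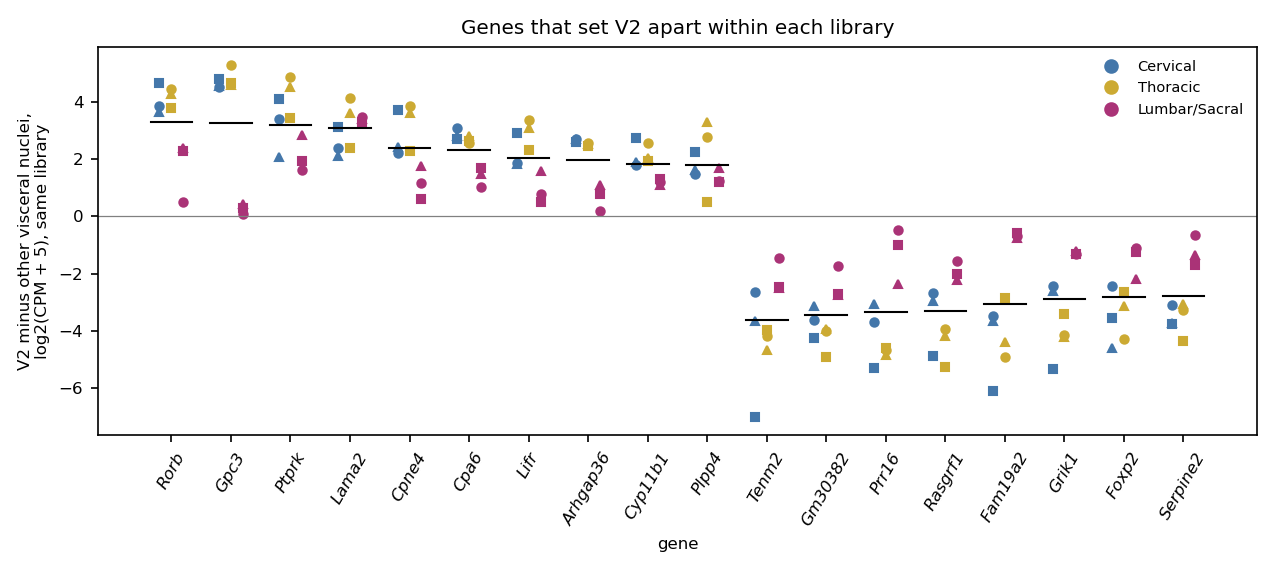
Difference between V2 and the other visceral nuclei of the same library, log2(CPM + 5), for the 10 genes highest and 8 of the 12 genes lowest in V2, with 1 point per library (n = 9), black bars for means, colours for regions and circles, squares and triangles for replicates 1, 2 and 3. All points lie on the same side of 0 for each gene, and the lumbar/sacral points lie nearest to 0 for most, as for *Gpc3* (mean 3.24, lowest 0.07).

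Of 23 glutamate receptor genes with at least 10 CPM (25 listed), none was higher in V2 by the rule above and 3 were lower, beside 1.24% of all genes, with a list median of -0.0978 beside -0.0211 over all genes. These were *Grik1*, the AMPA receptor subunit gene *Gria1* (192 ± 94.4 against 476 ± 151 CPM, SD, n = 9) and the metabotropic receptor gene *Grm8* (168 ± 189 against 668 ± 609). The call of *Grm8* rested on V8, which had 3494 ± 560 CPM in lumbar/sacral libraries (SD, n = 3). It did not pass with V8 left out or with equal weight, whereas *Grik1* and *Gria1* passed under both. Of 19 GABA and glycine receptor genes (26 listed), 3 were lower, among them *Gabrg3* (577 ± 367 against 1266 ± 542 CPM), where with equal weight none was lower and 2 were higher. Of 13 peptide receptor genes (55 listed), *Npy1r*, a neuropeptide Y receptor, was higher (48.4 ± 25.2 against 10.7 ± 3.69 CPM), and *Qrfpr* and the orexin receptor gene *Hcrtr1* were lower. *Hcrtr2*, the other orexin receptor gene, had 202 ± 115 CPM in V2 and 102 ± 29.1 in the other visceral nuclei, and passed the rule with V8 left out or with equal weight, but not in the pooled comparison. With equal weight 4 peptide receptor genes were higher and none lower. Of 9 monoamine receptor genes (31 listed), only *Htr1f*, a serotonin receptor, passed it, as lower, and it did not pass with V8 left out or with equal weight. Of 3 acetylcholine receptor genes (21 listed), none passed it in either direction, and with equal weight *Chrm2* did, as lower.

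*Nos1*, the neuronal nitric oxide synthase of many preganglionic neurons, was at 429 ± 149 CPM in V2 against 174 ± 41.6 (SD, n = 9). It was the 1 gene higher of 8 in the nitric oxide and cGMP list (10 listed), and none was lower, beside 0.399 and 1.24% of all genes. Neuropeptide precursors were sparse: 11 of 42 listed had at least 10 CPM, none was higher and 1, *Vgf*, was lower, with *Scg5* at 145 ± 25.4 against 153 ± 14.7 CPM and *Cartpt* at 29.7 ± 26.7 against 68.9 ± 46.0. Of 8 processing enzymes *Pcsk2* was lower (36.6 ± 16.2 against 96.9 ± 31.7 CPM), and *Pam*, which amidates peptides, had 326 ± 105 against 566 ± 102. The 4 cholinergic genes with at least 10 CPM (7 listed) differed by a median of 0.23 and none passed the rule. *Nos1* also passed with V8 left out and with equal weight, whereas *Vgf* and *Pcsk2* did not pass with equal weight, and no peptide gene was higher under any of the 3 comparisons.

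Of 42 potassium channel genes with at least 10 CPM (90 listed), 3 were lower, among them *Kcnc2* (181 ± 102 against 375 ± 122 CPM, SD, n = 9), and none was higher. Of 32 calcium and sodium channel genes (44 listed), 1 was lower and none higher, and of 12 TRP and Piezo genes (24 listed) none differed by the rule. The lower genes were thus 7.14% of the potassium and 3.12% of the calcium and sodium channel genes, beside 1.24% of all genes, with list medians of -0.0918 and -0.0816. With equal weight 4 potassium channel genes were higher and 1, *Kcnc2*, lower. All 9774 genes turned in the same way, from 39 higher and 121 lower in the pooled comparison to 98 and 57. The turn of this list with the comparator was thus not particular to potassium channels.

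Of 50 adhesion genes (66 listed), none was higher and 5 were lower: *Tenm2*, *Tenm3*, *Cdh18*, *Cntnap5a* and *Cntnap5c*. For this and the next 3 lists, the pooled shares over all genes were 0.399% higher and 1.24% lower. Of 46 guidance genes (67 listed), *Ntng1* and *Sema6a* were higher, the latter at 253 ± 121 against 93.7 ± 26.8 CPM (SD, n = 9), and 5 were lower: *Epha3*, *Epha7*, *Ephb1*, *Robo1* and the netrin receptor gene *Dcc* (239 ± 93.5 against 805 ± 275 CPM). Of 52 matrix genes (105 listed), 4 were higher, *Lama2*, *Gpc3*, *Adamts16* and *Fbn1*, and 5 were lower, among them *Postn* (22.0 ± 19.4 against 90.7 ± 29.6 CPM). *Fbn1*, the gene of fibrillin 1, was at 93.0 ± 34.7 against 38.7 ± 5.33 CPM, so that both fibrillin genes had more transcript in V2. In the growth factor list (27 of 44), *Lifr* and *Gfra1* were higher and *Fgf10* was lower. With equal weight, 3 adhesion genes were higher and 5 lower, 3 guidance genes higher and 3 lower, 7 matrix genes higher and 1 lower, and 3 growth factor genes higher and none lower. *Ntng1* and *Gpc3* did not pass with V8 left out. *Lama2*, *Fbn1*, *Adamts16*, *Sema6a*, *Lifr* and *Gfra1* passed as higher under all 3 comparisons. *Adamts16* was nonetheless at 66.5 ± 6.22 CPM in V8 (SD, n = 3), beside 54.7 ± 20.7 in V2 (n = 9). *Tenm2*, *Tenm3*, *Cdh18*, *Cntnap5a*, *Cntnap5c*, *Epha3*, *Epha7* and *Robo1* passed as lower under all 3.

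Among transcription factors of motor columns (12 of 32 with at least 10 CPM), *Foxp1* was higher in V2, at 549 ± 96.4 against 264 ± 86.2 CPM (SD, n = 9), and *Foxp2*, *Nfib* and *Alcam* were lower. *Foxp1* is known as a factor of limb-innervating and preganglionic columns, and *Alcam* encodes an adhesion molecule. *Isl1* was at 58.5 ± 38.1 against 23.7 ± 24.9 CPM and higher in 6 of 9 libraries, which the rule does not count, though it passed with V8 left out and with equal weight. *Foxp1* and *Nfib* passed under all 3 comparisons, and *Foxp2* and *Alcam* only in the pooled one. In the pooled comparison 0.399% of all genes were higher and 1.24% lower. Of 41 other neuronal factors (67 listed) only *Rorb* passed, and of 5 Hox genes (28 listed), 2 immediate early genes (10 listed) and 12 quality genes (16 listed) none did. In the lists the study took from these samples, which are not independent evidence, 2 of 15 visceral markers were higher (*Cpa6*, *Cpne4*) and 2 lower (*Fam19a2*, *Qrfpr*), and 3 of 43 visceral subtype markers were higher (*Rorb*, *Gpc3*, *Lama2*) and 12 lower. In the skeletal list 1 of 11 was lower and in the interneuron list 3 of 10, and of the genes of other transmitters (3 of 13) and of glia (4 of 18) none differed by the rule. *Palld*, a skeletal marker that encodes an actin-binding protein, was at 107 ± 62.2 CPM in V2 against 13.6 ± 3.50 and higher in 8 of 9 libraries.

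Over 13583 genes, V2 correlated best with V5 (mean r = 0.919 over 7 libraries), V3 (0.918 over 9), V4 (0.916 over 9) and V8 (0.912 over 3), and least with V10 (0.862). The points share library and depth, and V5, V3 and V4 are too close to be ranked. Against V5, 104 genes differed by a mean of at least 1 on the log2 scale with the same sign in every library, 47 of them higher in V2. *Lama2* (111 against 17.4 CPM) and *Nox4* (211 against 39.9), which encodes an NADPH oxidase, were higher in V2 and *Grik1* (89.2 against 666) was lower. Against V3, 151 genes differed, 70 of them higher: *Arhgap36* (127 against 6.96 CPM), the homeobox gene *Isl1* (58.5 against 1.05) and the substance P receptor gene *Tacr1* (110 against 9.03) were higher in V2, and *Grik1* (71.4 against 1196) and *Postn* (22.0 against 369) lower. Against V4, 141 differed, 80 of them higher: *Cpa6* (616 against 38.6 CPM) and *Pappa* (363 against 26.3), a protease gene, were higher, and *Edil3* (110 against 841) lower. *Isl1* and *Tacr1* thus separated V2 from V3, and *Cpa6* separated it from V4.

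In lumbar/sacral V2 nuclei, the neuregulin receptor gene *Erbb4*, the muscarinic receptor gene *Chrm3* and the adhesion gene *Cntn5* were far higher, and *Gpc3*, *Unc5d*, *Mme* and *Dach1* far lower, than in V2 nuclei of the other regions. The comparison asks whether a cluster that holds nuclei of all 3 regions carries the same genes in each. Of 10318 genes tested in V2 sums (limma with a trend, on log2(CPM + 5), n = 3 lumbar/sacral against 6 other libraries), 317 (3.07%) differed at an adjusted p under 0.05, 158 (1.53%) higher and 159 (1.54%) lower in lumbar/sacral libraries. The median difference over all genes was 0.03. A difference on this scale understates that of low genes.

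*Erbb4* was at 22.3, 3.97 and 33.6 CPM in the cervical, 9.91, 10.0 and 9.48 in the thoracic and 3619, 2880 and 4344 in the lumbar/sacral libraries, a log2 difference of 7.66 ± 0.36 (SE; limma, adjusted p = 5.2e-07). *Chrm3*, whose product raises calcium on binding acetylcholine, was at 11.1, 1.98 and 24.0, 12.8, 0 and 3.16, and 770, 579 and 692 CPM, a difference of 5.88 ± 0.45 (adjusted p = 1.8e-05). *Cntn5*, a contactin of neuronal contacts, was at 184, 5.95 and 187, 42.0, 10.0 and 14.5, and 1593, 1209 and 1256 CPM (5.0 ± 0.74, adjusted p = 0.0022). The groups did not overlap for any of these genes, and *Cntn5* also spread widely among the other libraries. *Lrrc4c*, which encodes a postsynaptic ligand of netrin-G1, the product of *Ntng1*, went from 115 to 394 CPM there to 2534 to 3567 CPM (3.84 ± 0.35, adjusted p = 7.1e-05).

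*Gpc3* was 4.33 ± 0.28 lower on the log2 scale (limma, adjusted p = 5.8e-06), with the values given above. *Unc5d*, a netrin receptor gene, was at 2651, 1583 and 3071, 1922, 2211 and 1622, and 286, 151 and 84 CPM, by region in the order used above (-3.73 ± 0.33, adjusted p = 5.5e-05). *Mme*, which encodes the peptide-cleaving enzyme neprilysin, was at 286, 340 and 250, 400, 216 and 308, and 23.3, 29.0 and 36.0 CPM (-3.14 ± 0.22, adjusted p = 1e-05). These 3 genes were low in all lumbar/sacral libraries and the groups did not overlap. *Dach1*, a transcription factor, was at 416, 594 and 471, 658, 246 and 386, and 71.6, 37.9 and 36.0 CPM (-3.12 ± 0.29, adjusted p = 8.5e-05). Others of the 10 largest differences downwards were *Car10* (-3.27), *Mapk4* (-3.16), *Abtb2* (-3.15) and *Lama3* (-2.99), and upwards *Plce1* (4.30), *Rxfp1* (4.30), *Pcsk5* (4.28), *Galnt18* (4.19), *Hs6st2* (4.13) and *Gulp1* (3.89).

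**Figure D3:**
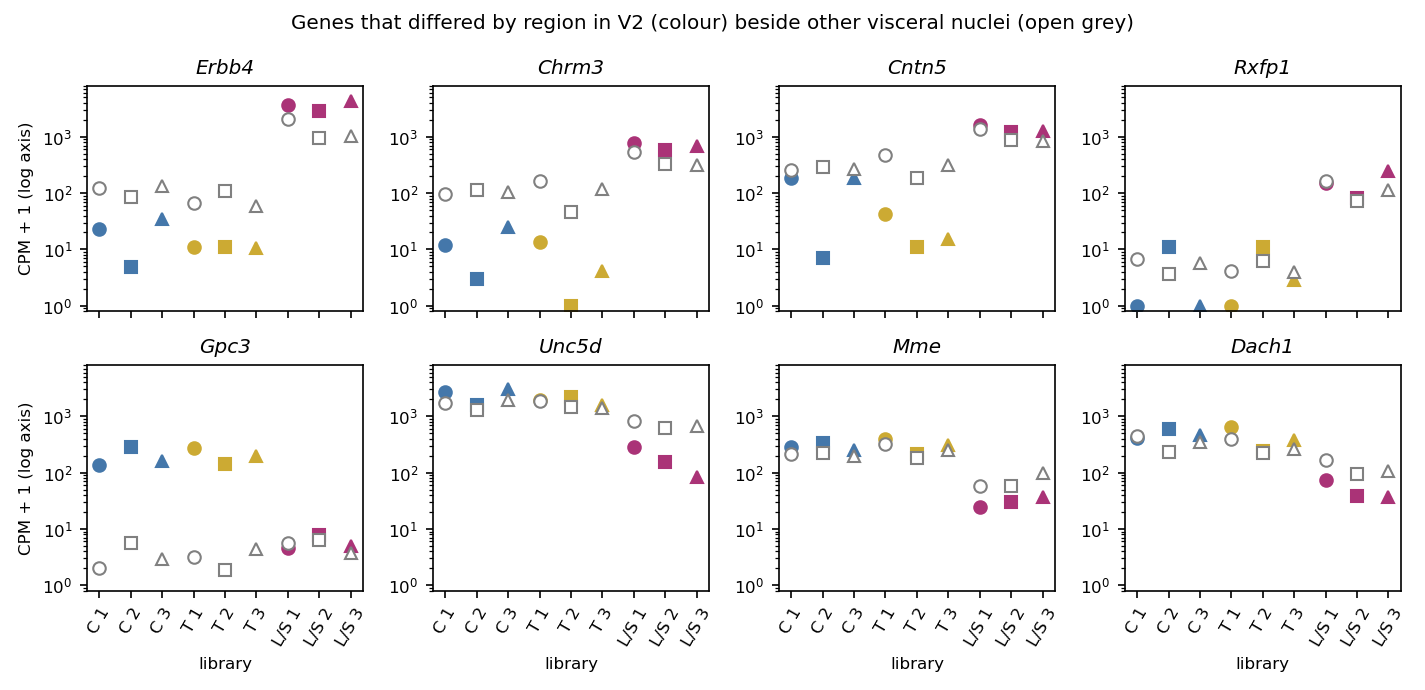
CPM + 1 on a log axis in each library, for 4 genes higher and 4 genes lower in lumbar/sacral V2 (colours: labelled cervical, thoracic and lumbar/sacral from left to right, circles, squares and triangles: replicates 1, 2 and 3) and for the other visceral nuclei without V8 (open grey). V2 and the other nuclei have a like difference for *Rxfp1*, *Mme* is lower in both and by more in V2, and *Gpc3* is at 137 to 283 CPM in V2 of cervical and thoracic libraries only.

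Several receptors for transmitters and peptides differed in V2 between regions, where 1.53% of all genes were higher and 1.54% lower in lumbar/sacral libraries. Of 4 acetylcholine receptor genes tested (21 listed), *Chrm3* was higher and *Chrm2*, a muscarinic receptor that couples to inhibitory G proteins, lower: it was at 466, 153 and 336, 241, 251 and 142, and 71.6, 8.91 and 24.0 CPM (-2.99 ± 0.47, adjusted p = 0.0032). Of 8 monoamine receptor genes (31 listed), the adrenergic receptor gene *Adra1a* was higher, at 1.86, 0.992 and 0, 0.583, 5.02 and 1.90, and 107, 73.5 and 52.0 CPM (3.60 ± 0.37, adjusted p = 0.00013), and the serotonin receptor gene *Htr2c* lower (-1.02 ± 0.22, adjusted p = 0.02). The call of *Htr2c* was lost in 2 of 9 fits that left out 1 library (highest adjusted p = 0.167). Of 15 peptide receptor genes (55 listed), the relaxin receptor gene *Rxfp1* was higher, at most 10.0 CPM outside and 149, 82.4 and 244 CPM in lumbar/sacral libraries (adjusted p = 0.00035). *Hcrtr2* was lower, at 231 to 338 CPM outside and 37.9 to 60.8 CPM in lumbar/sacral libraries (-2.30 ± 0.19, adjusted p = 4.3e-05), as was *Npy1r* (-1.46 ± 0.25, adjusted p = 0.006). *Npy1r*, higher in V2 than in the other visceral nuclei, was thus lower in its lumbar/sacral nuclei than in its other nuclei.

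Of 23 glutamate receptor genes (25 listed), 3 were higher and 2 lower in lumbar/sacral V2, beside 1.53 and 1.54% of all genes, with a list median of 0.14. *Grm8* was at 25.1 to 77.5 CPM outside and at 492, 249 and 468 CPM in lumbar/sacral libraries (2.89 ± 0.31; limma, adjusted p = 0.00022). It encodes a metabotropic receptor that couples to inhibitory G proteins. *Grm7* was also higher (1.47, adjusted p = 0.017, lost in 3 of 9 fits without 1 library), and *Grin2b* (-1.35 ± 0.17, adjusted p = 0.00062) and *Grm5* (-1.29, adjusted p = 0.0076) were lower. Of 19 GABA and glycine receptor genes (26 listed) only *Glra1*, a glycine receptor subunit, differed (2.54 ± 0.39, adjusted p = 0.0027).

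Of 12 neuropeptide genes tested (42 listed), only *Sst*, the gene of somatostatin, differed: it was at 1.86, 2.97 and 0 CPM in the cervical, 4.08, 10.0 and 6.32 in the thoracic and 23.3, 17.8 and 36.0 in the lumbar/sacral libraries (1.78 ± 0.38; limma, adjusted p = 0.02). Its levels in V2 were low in all libraries, and the call was lost in 5 of 9 fits that left out 1 library (highest adjusted p = 0.216). Of 8 processing enzymes, the proprotein convertase gene *Pcsk5* was higher (4.28 ± 0.35, adjusted p = 3.8e-05) and *Pcsk6* lower (-1.65). Of 7 nitric oxide and cGMP genes (10 listed), *Gucy1a1*, a subunit of the nitric oxide receptor guanylate cyclase, was higher (2.04 ± 0.34, adjusted p = 0.0044). Of 4 cholinergic genes (7 listed), 2 were lower: the choline transporter gene *Slc5a7*, at 343 to 683 CPM outside and 227, 267 and 236 CPM in lumbar/sacral libraries (-1.03 ± 0.20, adjusted p = 0.014), and *Prima1*, which anchors acetylcholinesterase (-1.22, adjusted p = 0.045). These calls were lost in 3 and 6 of the 9 fits that left out 1 library, with highest adjusted p values of 0.0932 and 0.326. *Prima1* was also not called without both doubted libraries (adjusted p = 0.0758). Beside these lists, 1.53% of all genes were higher and 1.54% lower in lumbar/sacral V2.

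Of 46 potassium channel genes (90 listed), 5 were higher and 4 lower in lumbar/sacral V2, beside 1.53 and 1.54% of all genes, with a list median of 0.26. The M-current gene *Kcnq5* (3.56 ± 0.60), the leak channel gene *Kcnk2* (2.82 ± 0.34), *Kcnj3*, *Kcna4* and *Kcnn2* were higher. *Kcnh1* (-2.20), *Kcnc2* (-1.74 ± 0.27; limma, adjusted p = 0.0029), *Kcnt2* and *Kcnip1* were lower. Of 31 calcium and sodium channel genes (44 listed), *Cacna1d* (1.27 ± 0.16, adjusted p = 0.00062) and *Scn1a* (1.27) were higher and none lower, and of 11 TRP and Piezo genes (24 listed) only *Trpc5* was higher (1.57). These 12 called channel genes moved in both directions among potassium channels and upwards in the other lists.

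Genes of adhesion, guidance and matrix were called in both directions. Of 52 adhesion genes (66 listed), 9 were higher and 9 lower, of 47 guidance genes (67 listed) 3 higher and 7 lower, and of 49 matrix genes (105 listed) 7 higher and 9 lower, beside the 1.53 and 1.54% of all genes. *Pcdh9*, a protocadherin, was at 391 to 1259 CPM outside and 6155, 2909 and 4500 CPM in lumbar/sacral libraries (2.77 ± 0.35; limma, adjusted p = 0.00065). *Cdh4* (2.52 ± 0.18, adjusted p = 1.1e-05) and the presynaptic gene *Nrxn3* (2.42 ± 0.24, adjusted p = 0.00012) were also higher, and *Cdh7* (-1.77) and *Cntnap2* (-1.33) lower. The ephrin receptor gene *Epha3* was at 2.97 to 13.0 CPM outside and at 100 CPM in each lumbar/sacral library (3.23 ± 0.34, adjusted p = 0.00015), with *Efna5* and *Ephb1* higher too. *Unc5d*, *Epha7* (-2.33), *Sema5b* (-2.0 ± 0.24), *Efnb2*, *Nrp2*, *Epha6* and *Ntng1* were lower, of which *Ntng1* (-0.79) lost its call in 7 of 9 fits without 1 library.

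Among matrix genes, *Gpc5*, a proteoglycan of the family of *Gpc3*, changed in the opposite direction to it. It was at 256, 214 and 197 CPM in V2 of the cervical, 382, 70.3 and 284 in the thoracic and 2142, 1358 and 1708 in the lumbar/sacral libraries (3.0 ± 0.40; limma, adjusted p = 0.00096). *Reln* (3.35 ± 0.57), which encodes the secreted protein reelin, *Col24a1* (3.44) and *Tnc* (2.42) were higher, and *Lama3* (-2.99 ± 0.37), *Adamts2* (-2.24) and *Col8a1* (-1.47 ± 0.18, adjusted p = 0.00048) lower. *Fbn2* itself was higher in lumbar/sacral V2 (0.84 ± 0.19, adjusted p = 0.031), but 7 of 9 fits that left out 1 library lost the call (highest adjusted p = 0.173), and *Fbn1* was lower (-1.04). *Mamdc2* was listed at 0 in all lumbar/sacral V2 sums, with an adjusted p of 0.046 that was lost in 8 of 9 such fits. In the growth factor list (26 of 44 tested), *Erbb4*, *Bdnf* (2.21, adjusted p = 0.02) and *Ret* (2.29 ± 0.37, adjusted p = 0.0041), the receptor that signals with *Gfra1*, were higher, and *Lifr* was lower (-1.34, adjusted p = 0.036, lost in 7 of 9 fits, highest adjusted p = 0.207). The shares over all genes were 1.53% higher and 1.54% lower.

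The Hox genes of V2 followed the labels of the lumbar/sacral libraries. *Hoxd11* was listed at 0 in all 6 other V2 sums and at 39.4, 57.9 and 76.0 CPM in the lumbar/sacral libraries (limma, adjusted p = 0.00013). *Hoxc11* was likewise at 0 and at 10.7, 13.4 and 16 CPM (adjusted p = 0.026), and *Hoxa9* was at 25.1, 35.6 and 28 CPM against at most 4.66 (2.35 ± 0.40, adjusted p = 0.0053). These were the 3 of 6 Hox genes tested (28 listed) that differed, beside 3.07% of all genes. Of 11 motor column factors (32 listed), the homeobox genes *Zfhx3* and *Zfhx4* (2.56) and the adhesion molecule gene *Alcam* (2.41 ± 0.39, adjusted p = 0.0038) were higher and none lower. *Zfhx3* was at 5.02 to 43.3 CPM outside and 276, 192 and 412 CPM in lumbar/sacral libraries (3.66 ± 0.38, adjusted p = 0.00014).

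Other transcription factors were called in both directions, 6 higher and 6 lower of 39 tested (67 listed), beside 1.53 and 1.54% of all genes. *Meis2*, a cofactor of Hox proteins, was at 470, 752 and 404 CPM in the cervical, 1049, 211 and 770 in the thoracic and 147, 55.7 and 52.0 in the lumbar/sacral libraries (-2.75 ± 0.46; limma, adjusted p = 0.0046), the lowest other library being the one labelled Thoracic 2. *Dach1* and *Rorb* were lower too, *Rorb* by -1.87 ± 0.35 (adjusted p = 0.01, lost in 2 of 9 fits without 1 library, highest 0.0741), with smaller differences in *Ebf1*, *Esr1* and *Meis1*. *Rarb* (3.45 ± 0.45), a retinoic acid receptor, *Ebf3* (3.36 ± 0.42, adjusted p = 0.00057), *Tox* (2.82 ± 0.35), *Tshz1* (1.69), *Esrrg* and *Zeb1* were higher. The gene with the largest mean difference between V2 and its neighbours, *Rorb*, was thus itself lower in lumbar/sacral V2, yet stayed above the other visceral nuclei there.

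In the marker lists the study took from these samples, which are not independent evidence, 3 of 15 visceral markers were higher in lumbar/sacral V2 (*Fam19a2*, *Cpa6*, *Fbn2*) and 5 lower (*Mme*, *Nox4*, *Hpgds*, *Cpne4*, *Col8a1*). *Fam19a2* differed by 3.13 ± 0.48 (limma, adjusted p = 0.0027), *Nox4* by -2.58 ± 0.26 (adjusted p = 0.00013) and *Cpa6* by 1.48 ± 0.33 (adjusted p = 0.029, lost in 5 of 9 fits without 1 library, highest 0.189). Of 26 visceral subtype markers tested (43 listed), 7 were higher and 4 lower, beside 1.53 and 1.54% of all genes. Of 8 skeletal markers (15 listed), *Ret* and *Plch1* were higher and *Palld* (-2.17 ± 0.22, adjusted p = 0.00013) and *Anxa4* lower, and of 9 interneuron markers (16 listed) *Ebf3* and *Arhgap6* were higher. The summed interneuron list of V2 moved with region, from 92.3 to 178 CPM outside to 310 to 408 CPM in lumbar/sacral libraries, and the part of such nuclei in the result was not tested. The summed skeletal list (215 to 303 and 261 to 304 CPM) and the summed glial list (39.0 to 113 and 50.1 to 122 CPM) overlapped between the groups. No gene of the lists of other transmitters (3 tested), glia (4), immediate early genes (4) or RNA quality (12, median -0.77) was called.

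The 317 calls rested in part on single lumbar/sacral libraries: 185, 169 and 152 genes were called without lumbar/sacral libraries 1, 2 and 3, and 150 of the 317 were called in every fit that left out 1 library and tested the gene. Beside those stated above, calls were lost in 8 of 9 such fits for *Anxa4*, in 7 for *Esr1*, in 6 for *Pcsk6*, *Epha6* and *Esrrg*, in 5 for *Scn1a*, in 4 for *Efna5*, *Kcnt2* and *Trpc5*, in 3 for *Bdnf*, *Kcnip1* and *Tshz1*, in 2 for *Kcnj3*, *Kcnn2* and *Zfhx4*, in 1 for *Ebf1* and *Grm5*, and in 4 and 1 of the 6 fits that tested *Hoxc11* and *Ephb1*. Without both doubted libraries, 388 genes were called, 294 of them among the 317, and *Anxa4* and *Lifr* were not (adjusted p = 0.0624 and 0.0652). The V2 nuclei of the lumbar/sacral libraries were also shallower, with median totals of 4862, 7010 and 5460 corrected counts against 7224 to 16252 elsewhere, and the effect of that depth was not tested. Per the methods, each barcoded region was normalised apart. The corrected totals were alike within a library but not within a region, with V2 medians of 7224, 16252 and 10310 in cervical libraries 1, 2 and 3. The effect of the correction on the regional differences of V2 was not tested. The other visceral nuclei went through the same correction and give a comparison within each library.

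Beside that comparison, 127 of 10925 genes (1.16%) had a regional difference in V2 that differed from the one in the other visceral nuclei of the same libraries, V8 left out, 45 (0.412%) in the positive and 82 (0.751%) in the negative direction (limma on within-library log2 differences). *Erbb4* went from 57.4 to 131 CPM in the other visceral nuclei outside to 2072, 962 and 1028 CPM in lumbar/sacral libraries, so that it was higher there too, but from a higher start, and the difference of differences was 3.92 ± 0.42 (adjusted p = 0.0037). *Chrm3* likewise differed by 4.00 ± 0.50 more in V2 (adjusted p = 0.0052). Its mean went from 8.86 CPM outside to 680 CPM in lumbar/sacral libraries in V2, and from 54.2 to 416 CPM in V5. The change was smaller in V3 (453 to 922 CPM) and V6 (93.2 to 160), and lumbar/sacral V8 had 660 CPM. A higher lumbar/sacral level of *Chrm3* was thus not particular to V2. By cluster, lumbar/sacral *Erbb4* was at 3614 ± 732 CPM in V2 (SD, n = 3), 3704 ± 2666 in V6 (n = 2), 3090 ± 800 in V5, 1394 ± 484 in V3 and 78.2 ± 44.2 in V4. In the other regions V6 was at 11.6 CPM, V2 at 14.9 CPM and V5 at 54.3 ± 48.6 CPM (SD, n = 4). The high lumbar/sacral level and the low level elsewhere were thus found in V6 and, from a higher start, in V5 as well as in V2. *Rxfp1* had a like difference in both: the other visceral nuclei went from a mean of 4.13 to 115 CPM, and the interaction was 0.64 (adjusted p = 0.66). The *Gpc3* interaction of -4.68 did not pass the test (adjusted p = 0.081), although the other visceral nuclei had almost none of this transcript.

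*Tox*, which encodes a chromatin protein of the HMG-box class, had the largest positive interaction, 4.15 ± 0.40 (limma, adjusted p = 0.0032). It was higher in lumbar/sacral V2, whereas in the other visceral nuclei it was at 60.2 to 153 CPM outside and 41.8, 23.9 and 36.8 CPM in lumbar/sacral libraries. That comparator changes its makeup between regions: V6, V10 and V9 had the most *Tox* (341, 208 and 154 CPM) and V9 had under 10 nuclei in each lumbar/sacral library. *Lypd6* (3.96 ± 0.38, adjusted p = 0.0032), *Grm8* (2.94) and *Kcnq5* (3.70 ± 0.70, adjusted p = 0.035) were also relatively higher. *Grm8* was at 128 to 463 CPM in the other visceral nuclei outside and at 201 to 312 CPM in lumbar/sacral libraries, so that the groups overlapped there, whereas in V2 they did not. In V5 alone the groups did not overlap either, at 30.2 to 146 CPM outside and 205 to 284 CPM in lumbar/sacral libraries, whereas in V3 and V4 they did. V7 and V9 had much *Grm8* outside (means of 719 and 756 CPM), so the makeup of the comparator bears on this gene too.

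*Meis2* was relatively lower in lumbar/sacral V2 by -2.99 ± 0.32 (limma, adjusted p = 0.0037), since the other visceral nuclei had 120 to 603 CPM outside and 342, 284 and 416 CPM in lumbar/sacral libraries. *Rspo3*, a secreted enhancer of Wnt signals (-3.14 ± 0.47, adjusted p = 0.012), *Unc5d* (-2.55 ± 0.31, adjusted p = 0.0052) and *Palld* (-2.55) were relatively lower too. By list, adhesion genes had 2 positive and 6 negative interactions of 53 tested, guidance genes 2 and 5 of 48 and matrix genes 2 and 4 of 55, beside 0.412 and 0.751% of all genes. Of these, 1 of 8 adhesion, 3 of 7 guidance and 1 of 6 matrix calls held in every fit that left out 1 library. In the lists of neuropeptides (12 tested), processing enzymes (8), peptide receptors (18), monoamine receptors (12), nitric oxide genes (8), calcium and sodium channels (33), TRP channels (12) and cholinergic genes (4), none was called. Acetylcholine receptor genes had *Chrm3* and the nicotinic *Chrna7* (-1.98, lost in 5 of 9 fits without 1 library) among 4 tested, and potassium channels *Kcnq5* and *Kcnh1* (-1.59, lost in 8) among 48.

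These calls depended on the comparator and on which libraries were kept. With V8 in the comparator, 163 genes were called, 83 of them among the 127. With the clusters of the comparator weighted equally, V8 left out, 139 were called, 91 of them among the 127. Under the fit with the replicate block, which pairs the libraries of a pool, 75 genes were called, 71 of them among the 127. Without both doubted libraries, 159 were called, 97 of them among the 127. Leaving out 1 library gave 83 calls without cervical 1, 56 without thoracic 1, 56 without thoracic 3, and 78, 42 and 39 without lumbar/sacral 1, 2 and 3. *Tox*, *Chrm3*, *Lypd6*, *Erbb4*, *Grm8*, *Meis2* and *Unc5d* were among the 30 genes called in every one of those fits, whereas *Kcnq5* lost its call in 5 of 9 (highest adjusted p = 0.161), *Rspo3* in 2 (0.0716) and *Palld* in 8 (0.243).

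**Figure D4:**
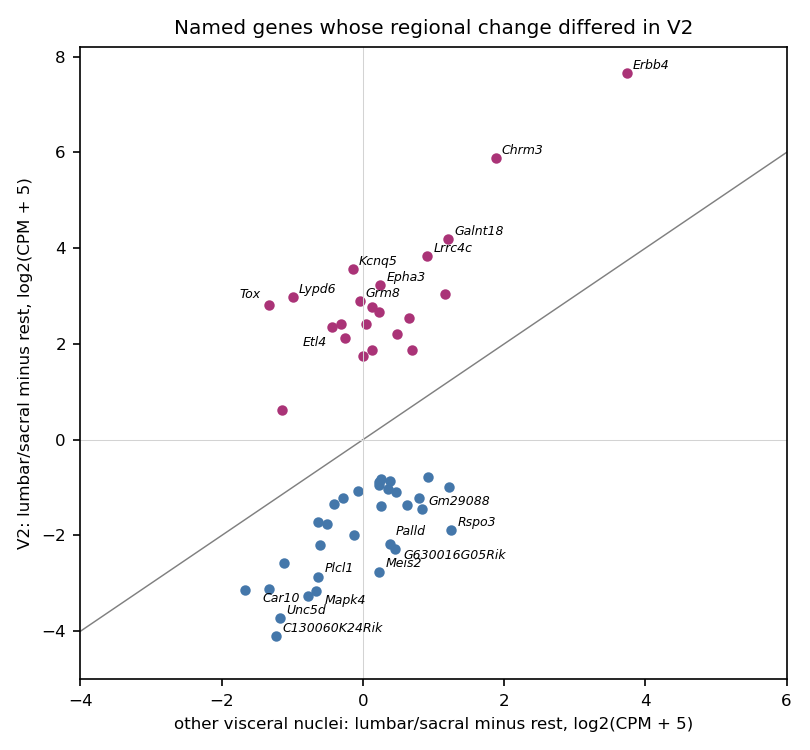
Lumbar/sacral minus the other regions on the log2(CPM + 5) scale, in the other visceral nuclei without V8 (horizontal) and in V2 (vertical), for the named genes called in the test of the difference between them, with points above the diagonal in purple and below it in blue. *Erbb4* differed by 7.66 in V2 and less in the others, and *Tox* lies to the left of 0 and *Meis2* to its right, where V2 and the others went in different directions.

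Over 10318 genes, lumbar/sacral V2 nuclei correlated with V2 nuclei of the other regions at a mean r of 0.841 (18 pairs of libraries, 0.780 to 0.917). The same measure was 0.887 for V3, 0.880 for V5, 0.864 for V4, 0.852 for V1, 0.838 for V7 (18 pairs) and 0.797 for V10 (4 pairs), on genes chosen by their level in V2. Within the lumbar/sacral libraries V2 was most like V3 (0.914) and V5 (0.911), and within the other libraries most like V4 (0.913) and V5 (0.904). These are descriptions across genes of libraries that share depth and pool.

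Between thoracic and cervical V2 nuclei as labelled, 0 of 10318 genes (0%) differed at an adjusted p under 0.05 (limma), 184 had an unadjusted p under 0.05, and the fit with the replicate block called 0 as well, with 500 at an unadjusted p under 0.05. This count rests on the doubted libraries. Without the libraries labelled Cervical 2 and Thoracic 2, which leaves 2 against 2, 28 genes were lower in thoracic V2, none higher, and 641 had an unadjusted p under 0.05. Without only the library labelled Cervical 2, 1 gene was called.

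*Fras1*, the gene of a basement membrane protein, was at 221 and 202 CPM in cervical libraries 1 and 3 and at 2.92 and 2.53 CPM in thoracic libraries 1 and 3 (-4.81 ± 0.46; limma without those libraries, adjusted p = 0.00113). It was at 2.97 CPM in the library labelled Cervical 2 and at 146 CPM in that labelled Thoracic 2. *Nell1*, which encodes a secreted protein, was at 310 and 255 against 11.1 and 5.06 CPM (-4.49 ± 0.28, adjusted p = 4.55e-05), with 6.94 CPM in the library labelled Cervical 2 and 452 CPM in that labelled Thoracic 2, and it was high again, at 655 to 868 CPM, in lumbar/sacral V2. The guidance gene *Sema5a* was at 293 and 284 against 26.8 and 17.7 CPM (-3.45 ± 0.34, adjusted p = 0.00113) and stayed low, at 6.68 to 8.00 CPM, in lumbar/sacral V2. *Qrfpr*, a peptide receptor gene, was at 117 and 144 against 22.7 and 9.48 CPM (-2.75 ± 0.38, adjusted p = 0.00917). *Gabrg3*, a GABA receptor subunit gene, was at 1042 and 721 against 161 and 96.7 CPM (-2.74 ± 0.29, adjusted p = 0.00186). The genes chosen by the 4 libraries placed the left-out libraries against their labels: of the 28, that labelled Cervical 2 was nearer to the thoracic mean in 27 and to the cervical mean in 1, and that labelled Thoracic 2 nearer to the cervical mean in 25 and to the thoracic mean in 3. With the labels as they stand and all libraries in the fit, no gene of the 28 passed (adjusted p of *Fras1* and the others about 0.975).

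**Figure D5:**
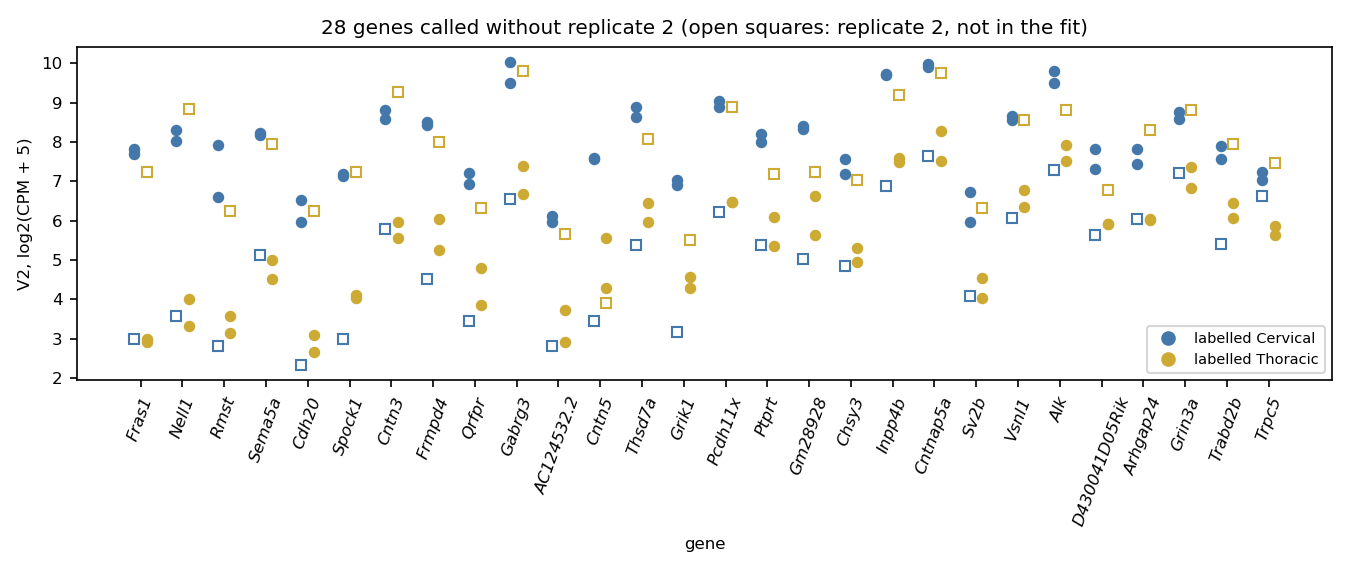
V2 levels, log2(CPM + 5), of the 28 genes called between thoracic and cervical V2 without the libraries labelled Cervical 2 and Thoracic 2. Filled circles are the libraries of replicates 1 and 3 and open squares those of replicate 2, which were not in the fit. The open blue squares lie near the filled yellow circles in 27 of 28 genes and the open yellow squares near the filled blue circles in 25.

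Between the male and the female pool, 4 of 9877 genes (0.0405%) differed in V2 (limma with a term for region, n = 3 libraries of 1 pool each), and 761 had an unadjusted p under 0.05. *Xist*, the RNA of the inactive X chromosome, was at 533, 659 and 728 CPM in libraries of the female pool and listed at 0 in those of males (adjusted p = 3.9e-05). *Uty*, *Eif2s3y* and *Kdm5d*, genes of the Y chromosome, were listed at 0 in the female pool (adjusted p = 0.0024, 0.0047 and 0.034). No autosomal gene passed. The count was 84 without the library labelled Cervical 2, 134 without cervical 3, 39 without that labelled Thoracic 2, 32 without thoracic 3, and 1 and 2 without lumbar/sacral 2 and 3, so it holds little information on other genes. Both doubted libraries are in the male pool. Without them these libraries leave no residual degrees of freedom, and a fit with the mixed pool added, in which the male pool is 1 library assumed to vary like the others, called the same 4 genes (499 at an unadjusted p under 0.05).

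Within V2, the genes that varied most between nuclei of the same library, by the ratio of variance to mean over 8638 genes (median 1.04), were the nuclear RNA *Malat1* (49.5), the adhesion genes *Lsamp* (13.6) and *Pcdh9* (12.5), *Zfp804b* (11.5), the mitochondrial *mt-Co3* (10.9) and *Lrrtm4* (10.4). This ratio can rise with the level of a gene. *Malat1* was at 74827, *Lsamp* at 15290 and *Lrrtm4* at 3646 CPM on average in V2, whereas *mt-Co3* was at 226. The effect of level on the ranking was not tested. *Adamtsl1* (7.10) and *Gabrg3* (7.08) were among the 10 highest, and at least 1 corrected count was found in 8.12 to 59.1% of the V2 nuclei of a library for *Adamtsl1* and in 38.6 to 90.5% for *Gabrg3*. In the deepest library, that labelled Cervical 2, the shares were 9.52% for *Adamtsl1* and 44.4% for *Gabrg3*. In lumbar/sacral libraries 1, 2 and 3, the shallowest, they were 43.0, 59.1 and 44.7% for *Adamtsl1* and 70.2, 74.2 and 80.9% for *Gabrg3*. The effect of depth on these shares was not tested. *Malat1* and *mt-Co3* can vary with the quality of a nucleus, which was not tested either.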

How the data were processed

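Single nuclei were sorted for GFP and sequenced in 9 libraries (3 regions, 3 pools). Per the labels and methods, the authors made the values with Cell Ranger 3.1.0 on mm10 with introns counted, removed outlying nuclei, normalised each barcoded region apart with SCTransform in Seurat and clustered the integrated data. The deposited values for 21457 features are SCTransform-corrected counts, a model score and not raw counts, so no count model was used. V2 was taken from the deposited cluster labels. Values were summed per library (at least 10 nuclei) and scaled to 1000000 (CPM). Moderated tests of limma 3.58.1 (R 4.3.3), with a mean trend, were run on log2(CPM + 5) where a gene reached 10 CPM in 3 or more sums, and Benjamini-Hochberg adjustment over all genes tested, with a threshold of 0.05. Other steps used Python 3.11.15, scipy 1.17.1 and scanpy 1.11.5. Shares were compared by exact permutation tests and carry 95% Wilson intervals, which cover counting error only.

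Genes were named by rule: the 20 highest and 12 lowest in V2 among genes of at least 50 CPM with 1 direction in every library, list members past a difference of 1 or with the highest level, the 10 largest differences each way in a regional test with up to 10 called members of each list, and the 10 most variable genes. The 27 gene lists, the members and the rules were chosen with earlier results of these data known. Gene positions are from GENCODE for GRCm38. Same-numbered libraries come from the same pool of mice, and their deviations from region means correlated at -0.0639 to 0.605, so the fit with the replicate block is given where it moves a count. The libraries of a group come from separate pools of mice. The alternatives were other pseudocounts (1 and 20), filters (none and 50 CPM), scaling, a minimum of 20 nuclei, other comparators, leaving out each library and, chosen after seeing the data, leaving out the libraries labelled Cervical 2 and Thoracic 2 (with the mixed pool added between sexes) and counting lists against other comparators. On simulated data with 200 changed genes, the test recovered 57.5% of changes of 2 times and 99% of changes of 4 times for lumbar/sacral against other V2 sums, 32.5 and 99.5% for thoracic against cervical, 38.5 and 99% between pools and 0.5 and 96.5% for the difference from other visceral nuclei. The changed genes had a mean of at least 50 CPM in V2, and the simulation had no pool effect and no library against its label. It therefore cannot say which changes the count of 0 between thoracic and cervical V2 missed. Values of nuclei that are not cholinergic were not used here, and the results of some genes are not reported here.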

Additional observations from a re-analysis of the deposited data

Results flagged for a closer look

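The regional difference of V2 differed from that of the other visceral nuclei in 127 genes, by a test of the difference itself. The largest positive differences on the log2 scale were in *Tox* (4.15), *Chrm3* (4.00), *Lypd6* (3.96), *Erbb4* (3.92), *Kcnq5* (3.70), *Epha3* (2.99), *Galnt18* (2.99), *Grm8* (2.94), *Lrrc4c* (2.93) and *Etl4* (2.79). The largest negative ones were in *Rspo3* (-3.14), *Meis2* (-2.99), C130060K24Rik (-2.87), G630016G05Rik (-2.73), *Unc5d* (-2.55), *Palld* (-2.55), *Mapk4* (-2.50), *Car10* (-2.49), Gm29088 (-2.28) and *Plcl1* (-2.23). The comparator pools clusters, and for some genes single clusters differed much as V2 did. From the other regions to lumbar/sacral libraries, mean *Galnt18* went from 6.25 to 173 CPM in V2, 15.8 to 214 in V3 and 4.99 to 172 in V6. *Epha3* went from 6.73 to 100 CPM in V2 and 12.8 to 156 in V4, but from 36.1 to 26.7 in V5. *Lrrc4c* went from 232 to 3091 CPM in V2 and 242 to 2206 in V6, but from 6594 to 5521 in V7.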

How the results depend on the processing

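The 317 regional calls in V2 became 152 to 350 when 1 library was left out, 429 under the replicate block and 388 without both doubted libraries (127 became 159 for the interaction). The thoracic against cervical count of 0 became 1 without the library labelled Cervical 2 and 28 without that and the one labelled Thoracic 2. The 4 calls between pools became 2 with a pseudocount of 1, 10 without a filter, 1 with a filter of 50 CPM and 1 to 134 without 1 library. The 127 interaction calls became 71 and 301 with pseudocounts of 1 and 20, 74 without a filter, 238 with a filter of 50 CPM, 75 under the replicate block and 39 to 161 without 1 library. With V8 in the comparator they became 163, and with its clusters weighted equally, V8 left out, 139. The lumbar/sacral difference in share reversed to -2.35 points as a share of cholinergic nuclei, and with clusters weighted equally 80 genes were higher and 39 lower in V2. The cause of these changes was not tested. The values of single genes under the alternatives were tallied with the counts of genes higher and lower. Of these, 2852 stayed the same, 475 were weaker, 18 stronger, 6 moved and none reversed. A called gene was the same if it kept its call and weaker if it lost it. The stronger values were all counts, since each named gene of a test was already called in the main fit. A gene of the description had no threshold, and moved if it left the SD of its main difference. V2 sums of 21 nuclei limit the precision of low genes, and 1 corrected count there is worth up to 5.02 CPM.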
